A study of Mus musculus with 6 samples.

Results

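The 35 genes described here are those of NF-κB subunits and IκB proteins, Tnfaip3 and inflammatory genes, chosen from a fixed list of names. Each was measured on its brightest probe set by the mean of 6 arrays. Of the 35, 33 had a probe set annotated to 1 gene, out of 18193 such genes on the Affymetrix Mouse Genome 430 2.0 array, and 29 passed a filter on low signals, out of 12711 genes. Nfkb1 and Il1rl1 are not analysed here. RNA came from primary chondrocytes of newborn mice, wild-type on 3 arrays and Slc39a13 knockout (Slc39a13-KO) on the other 3, whose cells lack the zinc transporter Slc39a13/Zip13. In the KO line a Neo cassette replaced the exons that encode the conserved motif of this transporter family, in every cell of the animal. The cells were released from cartilaginous rib cages with collagenase and grown in serum, with no sort and no inflammatory stimulus described. No source says whether mice were pooled or whether each array had a culture of its own, and every p-value here rests on the spread of the arrays within a group, part of which may be technical.

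NF-κB is a family of dimeric transcription factors that are held in the cytoplasm by IκB proteins. Receptors for bacterial products, TNF and IL-1 activate the IκB kinase, which marks IκB proteins for destruction, and the freed dimers enter the nucleus and bind κB sites. Many of the genes they switch on encode chemokines, cytokines and adhesion molecules, and others encode IκB proteins themselves, which end the response. In chondrocytes the pathway is best known for the answer to IL-1 and TNF in inflamed joints.

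Signals of Slc39a13 itself were 901, 1081 and 991 in wild type and 100.5, 196 and 165 in KO, which matches the labels. KO replicate 1 stood apart, with correlations to other arrays of 0.921 to 0.925, against 0.944 to 0.960 among the rest. Its median signal of 108 was the highest of the 6 arrays. Xist, a transcript of female cells, had a signal of 5194 in wild-type replicate 3, 6445 in KO replicate 2 and 79.0 to 107 elsewhere. The ratio of the 3' to the 5' control probe set of β-actin, a sign of RNA integrity, was 1.17 to 1.20 on wild-type and 1.17 to 1.33 on KO arrays. All 15 markers of chondrocytes, such as Acan and Comp, passed the filter, with a summed signal of 132629 to 156659 on wild-type and 180734 to 248821 on KO arrays. In limma 6 of them were higher and 1 was lower, and the methods' t-test called none after adjustment. Among all tested genes 4.65% were higher and 4.68% lower in limma. Log2 fold changes were above 0 for 11 markers and below it for 4, the lowest being -0.50. Acan, Col11a2, Comp and Cnmd, those past the test with the largest changes, rose (log2 fold changes of 0.91, 0.91, 0.76 and 0.57). Cnmd passed in only 6 of 17 alternative settings.

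Among the 29 tested genes, 5 were lower and none was higher in Slc39a13-KO chondrocytes, while 24 did not pass the test. The 5 were Nfkbia and Nfkbiz, which encode IκB proteins, Cd14, a receptor for bacterial lipopolysaccharide, and Icam1 and Vcam1, which encode adhesion molecules for leukocytes. The test was limma on log2(signal + 7.96), with Benjamini-Hochberg adjustment over all 12711 genes and a threshold of 0.05. By the same test 4.68% of all genes were lower and 4.65% were higher in KO cells, against 17.2% of the 29 that were lower. With arrays centred on their medians the all-gene counts went from 591 higher and 595 lower to 106 and 231, and 2 of the 29 genes were lower, Icam1 and Vcam1. Without KO replicate 1, 5 of the 29 were lower, 4 of them the same genes, and 4.81% of all genes were lower. The median log2 fold change of the 29 genes was -0.25, and that of all tested genes was 0.01. Before adjustment, 8 of the 29 were lower and 1 was higher at a p under 0.05 in limma. The share of all genes at this unadjusted level was not counted, here or for the lists below, so such counts have no background. After adjustment the methods' t-test called 1 of the 29 lower and none higher. Among all 12711 genes it called 44 lower (0.346%) and 41 higher. The 3 KO arrays lay wholly below the 3 wild-type arrays for 10 of the 29 genes, or 34.5%, and wholly above them for 1, Csf1. Over all tested genes these shares were 14.9% and 16.0%. Rel, Nfkbie, Traf1 and Il6 reached the filter through the wild-type arrays, with KO means under it, so their part in the median and, for Rel and Nfkbie, in the count of 10 is no support for a lower level. The 5 genes past the test are not among these 4.

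**Figure D1:**
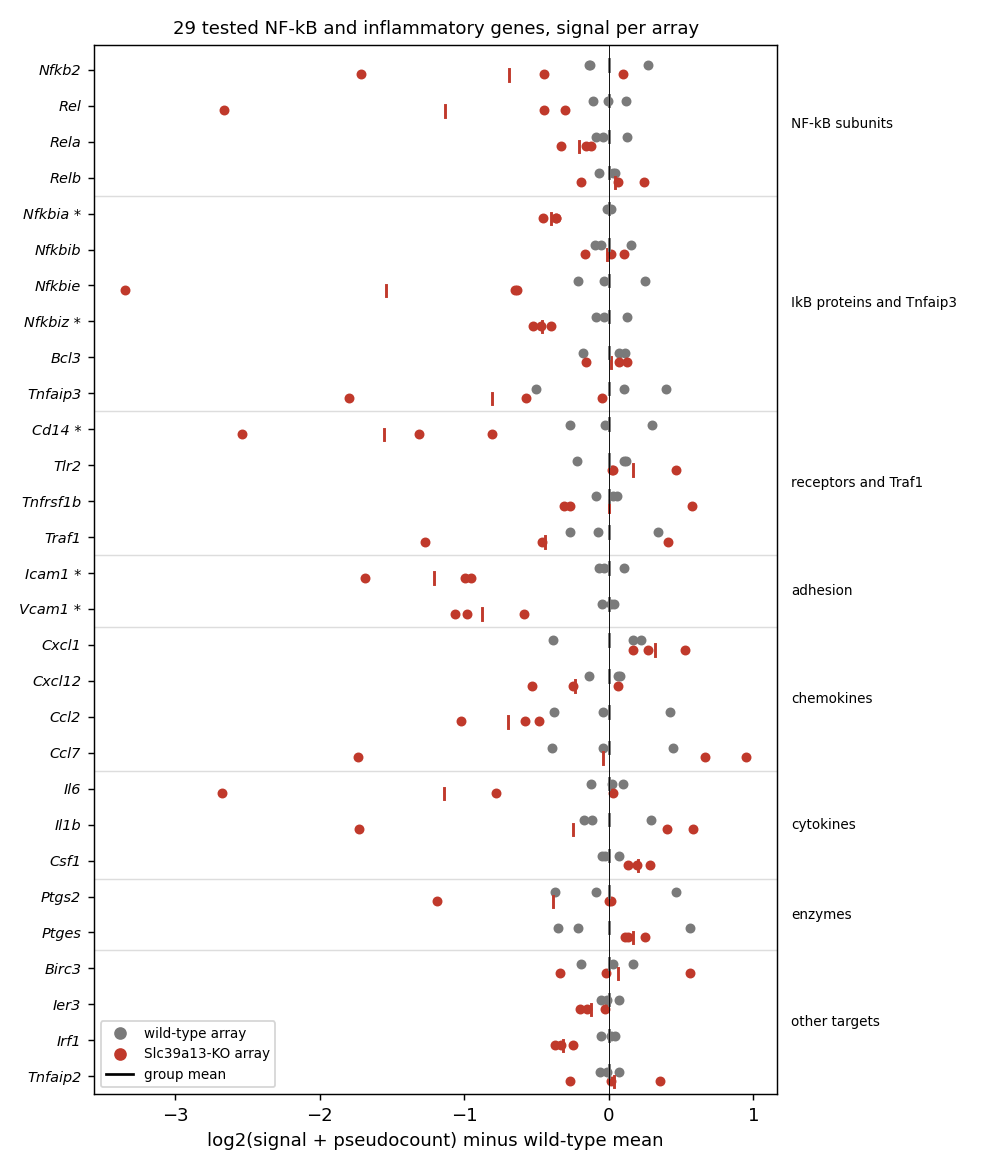
Signals of the 29 tested genes as log2(signal + pseudocount) minus the wild-type mean, on the horizontal axis, with genes in rows by role. Gray points are wild-type arrays, red points are Slc39a13-KO arrays, vertical ticks are group means and a star marks the 5 genes past the adjusted p threshold. The red points of Nfkbia, Nfkbiz, Cd14, Icam1 and Vcam1 all lie left of the gray ones, while single KO arrays lie far to the left for Nfkb2, Rel, Nfkbie, Il6 and Il1b.

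Sequence before the start sites of these genes is shown because NF-κB binds κB sites and many of the listed genes are its known targets. In RefSeq promoters of build GRCm38.p6, which run from 250 bases before to 50 bases after a start site, the κB consensus was searched on both strands. Of 26 listed genes in that table, 13 held a match, or 50%, against 5.14% of 27025 genes. The genes were listed for their part in this pathway, so the share describes the list and is not a finding of the arrays. The upstream signaling genes held a match in 9 of 42 (21.4%) and other known NF-κB target genes in 7 of 36 (19.4%). TGANTCA, the site of AP-1 factors, was found in 4 of the 26 genes (15.4%) and in 8.97% of all genes. Of the 5 genes that were lower, Nfkbia and Icam1 are in the table, and the 250 bases before their start sites are printed whole, 5′ to 3′ on the gene's strand, with κB matches in capitals. Nfkbia held 1 match, from -29 to -20 counted from the start site, and Icam1 held none, which says only that these letters are not in this window.
Nfkbia (chr12:55492648-55492897, minus strand): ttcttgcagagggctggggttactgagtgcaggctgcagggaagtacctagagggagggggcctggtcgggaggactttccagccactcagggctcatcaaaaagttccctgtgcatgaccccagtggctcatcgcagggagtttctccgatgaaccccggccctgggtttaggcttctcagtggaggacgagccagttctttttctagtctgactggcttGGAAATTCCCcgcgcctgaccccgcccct
Icam1 (chr9:21015690-21015939, plus strand): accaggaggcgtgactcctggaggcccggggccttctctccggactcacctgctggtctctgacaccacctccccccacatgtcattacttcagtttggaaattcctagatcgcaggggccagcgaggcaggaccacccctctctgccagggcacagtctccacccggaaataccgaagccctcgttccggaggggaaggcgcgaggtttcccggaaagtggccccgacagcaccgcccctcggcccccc

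For comparison, the match nearest before a start site is printed with its flanks for the 11 other genes that hold one there. Of these, Ccl20 was under the filter and the other 10 did not pass the test. Rel, Tlr2 and Cxcl1 hold overlapping matches, printed as 1 run of capitals. The match in Bcl3 lies after its start site and is not printed. Of the 13 genes with a match, 12 were tested and 1, Nfkbia, was lower. No promoter was available for Nfkbiz, Cd14 and Vcam1. The count thus cannot be set against the 17.2% of the 29 genes or the 4.68% of all genes that were lower.
Nfkb2 (chr19:46304716-46304736, plus strand, -11 to -2): ggggccgaaaGGGGCTTTCCc
Rel (chr11:23771042-23771071, minus strand, -92 to -82): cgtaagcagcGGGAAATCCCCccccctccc
Nfkbie (chr17:45555584-45555613, plus strand, -106 to -97): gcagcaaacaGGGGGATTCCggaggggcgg
Tnfaip3 (chr10:19015411-19015432, minus strand, -12 to -3): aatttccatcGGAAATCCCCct
Tlr2 (chr3:83841762-83841791, minus strand, -173 to -163): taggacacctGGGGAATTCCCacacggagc
Cxcl1 (chr5:90891164-90891193, plus strand, -71 to -61): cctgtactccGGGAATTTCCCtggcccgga
Ccl20 (chr1:83116676-83116705, plus strand, -80 to -71): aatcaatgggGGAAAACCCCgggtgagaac
Il6 (chr5:30013060-30013089, plus strand, -44 to -35): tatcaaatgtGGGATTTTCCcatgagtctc
Csf1 (chr3:107760604-107760633, minus strand, -154 to -145): gggccttgagGGAAAGTCCCtaggggccag
Ier3 (chr17:35821611-35821640, plus strand, -92 to -83): tgcgaagggcGGAGTTCCCCccggcccggc
Irf1 (chr11:53769991-53770013, plus strand, -13 to -4): agtccgggccGGGGAATCCCgct

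Of the 4 NF-κB subunit genes measured, none passed the test, and none had an unadjusted p under 0.05 in limma or by the methods' t-test. The KO arrays lay wholly below the wild-type arrays for 2 of the 4, Rela and Rel, and for 14.9% of all tested genes. Rel reached the filter through the wild-type arrays, so its part in this count is no support for a lower level. Rela, which encodes the transactivating subunit p65, had signals of 1566, 1398 and 1351 on wild-type arrays and 1318, 1283 and 1142 on KO arrays. The groups were apart by a narrow gap, and the log2 fold change was -0.20 ± 0.10 (SE), with an adjusted p of 0.220 in limma. Rel, which encodes c-Rel, had wild-type signals of 113, 104 and 123 and KO signals of 11.2, 90.3 and 80.9, which differ by -1.14 on the log2 scale (adjusted p = 0.264). KO replicate 1 was far below the other arrays, and without it the log2 fold change was -0.37 (adjusted p = 0.455). Nfkb2, which encodes the p100 precursor of p52, had wild-type signals of 302, 403 and 304 and KO signals of 95.9, 243 and 357. Again KO replicate 1 was lowest, KO replicate 3 lay within the wild-type range, and the log2 fold change was -0.69 (adjusted p = 0.295), or -0.18 without KO replicate 1. Relb, the partner of p52, had signals of 151 to 163 in wild-type and 138 to 189 in KO cells, which overlap (log2 fold change 0.04, adjusted p = 0.935).

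In the group of 6 genes made up of those of IκB proteins and Tnfaip3, Nfkbia and Nfkbiz were lower in KO chondrocytes. The other 4 did not pass. Nfkbia encodes IκBα, the main cytoplasmic inhibitor, and is itself a classic NF-κB target. Its signals were 4478, 4378 and 4416 on wild-type arrays and 3221, 3423 and 3430 on KO arrays. The arrays of each group lay close together and the groups far apart in relation, with means of 4424 ± 50.4 (SD, n = 3 arrays) and 3358 ± 119 (SD, n = 3). This is 1.32-fold lower in KO cells, a log2 fold change of -0.40 ± 0.07 (SE), with an adjusted p of 0.00764 in limma. Nfkbia also has 4 dimmer probe sets, tested over all 23294 probe sets past the filter, of which 3.37% were lower and 3.44% higher. The next brightest went from 2575 ± 287 to 1561 ± 60.4 (SD, n = 3 each), -0.71 on the log2 scale (adjusted p = 0.00402), and another from 693 ± 80.5 to 441 ± 11.7, with -0.64 (adjusted p = 0.0146). The remaining probe sets had -0.44 and -0.13 and did not pass (adjusted p = 0.0739 and 0.763). All 5 probe sets of Nfkbia thus pointed the same way, and 3 passed. With median centring of the arrays the brightest did not pass (adjusted p = 0.120), nor without limma's trend (0.0652), while it passed without each array in turn.

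Nfkbiz encodes IκBζ, a nuclear member of the family that is induced by IL-1 and bacterial products and acts on part of the NF-κB targets. It had signals of 592, 509 and 528 on wild-type arrays and 375, 409 and 390 on KO arrays, a log2 fold change of -0.46 ± 0.12 (SE), with an adjusted p of 0.0414 in limma. The gap between the groups was wider than the range within either one. The call was close to the threshold, and without any 1 of the 6 arrays the adjusted p was 0.0576 to 0.172. Over all probe sets past the filter its adjusted p was 0.0509, its other 2 probe sets had -0.31 and -0.15 and did not pass, and with the mean of all 3 the adjusted p was 0.286.

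Nfkbie, which encodes IκBε, had wild-type signals of 136, 168 and 120 and KO signals of 87.2, 6.58 and 86.5. All KO arrays were lower, but KO replicate 2 lay far below the other KO arrays, and the log2 fold change of -1.54 had a standard error of 0.66 (adjusted p = 0.177). Its KO mean did not reach the filter level, and the pseudocount sets part of the size of the change, as it does for Rel, Traf1 and Il6. Tnfaip3, which encodes the deubiquitinase A20 that shuts the pathway down, had wild-type signals of 204, 106 and 165 and KO signals of 147, 100 and 38.4. The groups overlapped and the adjusted p was 0.294. Nfkbib and Bcl3, further genes of the IκB family, differed by -0.02 and 0.01 on the log2 scale, with adjusted p = 0.957 and 0.980.

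**Figure D2:**
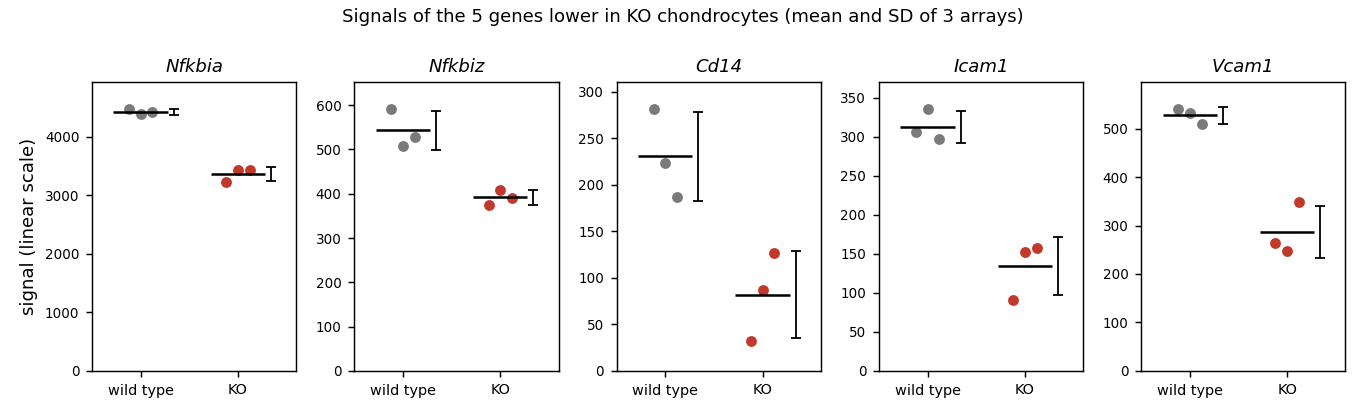
Signals on a linear scale from 0 of the 5 genes that were lower, with 1 panel for each gene. Gray points are the 3 wild-type arrays, red points the 3 KO arrays, horizontal lines are means and bars beside them are the SD of 3 arrays. The groups do not overlap in any panel, and the KO arrays lie closest together in relation to their mean for Nfkbia and Nfkbiz.

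Of the 4 receptor and adaptor genes measured, Cd14 was lower and the other 3 did not pass. Cd14 binds lipopolysaccharide and hands it to Tlr4, and it is a marker of macrophages that other cells also express. Its signals were 282, 223 and 187 on wild-type arrays and 32.6, 86.8 and 126 on KO arrays. The means were 231 ± 47.7 (SD, n = 3 arrays) and 81.9 ± 47.1 (SD, n = 3), 2.82-fold lower in KO cells, and the log2 fold change was -1.55 ± 0.41 (SE), with an adjusted p of 0.0422 in limma. Without wild-type replicate 1, 2 or 3 or KO replicate 2 the adjusted p was 0.162, 0.138, 0.0919 and 0.0721, and without KO replicate 1, the lowest, the log2 fold change was -1.06 (adjusted p = 0.0328). Over all probe sets past the filter the adjusted p was 0.0509. Cd14 passed in 6 of 16 alternative settings, with adjusted p up to 0.230 by the methods' t-test. Macrophage markers went both ways and none passed the test. Of 19 macrophage markers, 8 passed the filter, 0 were lower and 0 were higher (limma, 3 higher and 0 lower at an unadjusted p under 0.05, none by the methods' t-test after adjustment, and 1 lower by it before adjustment). Of the 8, 6 had a log2 fold change above 0 and 2 below it, with a median of 0.50. The lowest was that of Cd68, a lysosomal marker of macrophages. It had 130, 118 and 118 in wild type and 67.9, 87.5 and 88.9 in KO (log2 fold change -0.55, adjusted p = 0.269). Ctss and Lyz2, the 2 with the lowest p, differed by 2.05 and 1.05 on the log2 scale, with adjusted p = 0.0805 and 0.103, but Ctss, C1qb and Mrc1 reached the filter through the KO arrays, with wild-type means under it. The summed signal of the 19 was 794 to 1065 on wild-type and 1137 to 1995 on KO arrays, and no marker was at 0. The part of macrophages in the signal of Cd14 was not tested. In such mixed cultures, fewer cells of a type and less RNA per cell cannot be told apart.

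Tlr2, the receptor for bacterial lipoproteins, had signals of 207 to 263 in wild-type and 245 to 337 in KO chondrocytes, which overlap (adjusted p = 0.627). Tnfrsf1b, the second TNF receptor, had wild-type signals of 328, 295 and 322 and KO signals of 473, 253 and 260, with equal means on the log2 scale (log2 fold change -0.00057, adjusted p = 0.999). KO replicate 1 was thus the highest array and the other KO arrays the lowest. Traf1, an adaptor of TNF receptors and an NF-κB target, had 47.8 to 77.2 in wild-type and 19.9 to 81.3 in KO cells (adjusted p = 0.664).

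Both adhesion molecule genes were lower, Icam1 by 2.33-fold and Vcam1 by 1.84-fold. Icam1 encodes the ligand of leukocyte β2 integrins and Vcam1 that of integrin α4β1. Icam1 had signals of 305, 336 and 297 on wild-type arrays and 91.3, 153 and 158 on KO arrays, with means of 313 ± 20.5 and 134 ± 37.0 (SD, n = 3 arrays each). The gap between the groups was wider than the range within either one, and the log2 fold change was -1.21 ± 0.23 (SE), with an adjusted p of 0.0112 in limma. Vcam1 had signals of 542, 532 and 509 against 263, 248 and 348, with means of 527 ± 16.9 and 286 ± 54.1 (SD, n = 3 each) and a log2 fold change of -0.88 ± 0.15 (SE), with an adjusted p of 0.00762 in limma. Its 2 dimmer probe sets had -0.59 and -1.29, the same sign, and did not pass (adjusted p = 0.279 and 0.192). Without KO replicate 1 the log2 fold change of Icam1 was -0.97 (adjusted p = 0.00791). Icam1 did not pass without wild-type replicate 1 or 2 (adjusted p = 0.0511 and 0.0675), and Vcam1 passed without each array in turn but not with the mean of its probe sets (0.0987).

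Markers of mesothelial cells, which line the chest cavity, were lower on the same arrays. Of 15 such markers 14 were tested, 11 were lower and none was higher (limma, 0 higher at an unadjusted p under 0.05, and 0 lower and 0 higher by the methods' t-test after adjustment), and their summed signal was 6008 to 10120 on wild-type and 1130 to 2011 on KO arrays, with no marker at 0. Upk1b, Krt19, Msln and Upk3b had log2 fold changes of -4.38, -3.60, -3.09 and -3.09, with the KO means of Upk1b and Krt19 under the filter. Fibroblast markers went both ways. Of 11 such markers 10 were tested, and 5 were higher and 2 lower (limma, 0 higher and 0 lower by the methods' t-test after adjustment). Their summed signal was 52719 to 64108 on wild-type and 73864 to 94754 on KO arrays. Col1a1, Lum, Col1a2 and Postn, those past the test with the largest changes, had log2 fold changes of 0.69, 0.64, 0.59 and 0.55. The lowest of the 10 was -0.51. Of 12 endothelial and 9 neutrophil markers 4 and 1 passed the filter, and none of them passed the test (limma, none at an unadjusted p under 0.05, none by the methods' t-test). Kdr, Robo4 and Mpo, which had the lowest p of their lists, had log2 fold changes of 0.26, 0.24 and 0.65, with the wild-type mean of Mpo under the filter. Summed signals of endothelial markers were 687 to 917 on wild-type and 545 to 1103 on KO arrays, and those of neutrophil markers 219 to 387 and 210 to 391.6. The part of these cells in the lower signals of Nfkbia, Nfkbiz, Cd14, Icam1 and Vcam1 was not tested.

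Of the 4 chemokine genes tested, none passed in limma or by the methods' t-test, and 1, Ccl2, had an unadjusted p under 0.05 in limma. Ccl2, which attracts monocytes, had signals of 220, 281 and 390 on wild-type arrays and 191, 138 and 205 on KO arrays. The KO arrays were all lower, but the wild-type arrays were wide apart, and the log2 fold change was -0.69 ± 0.24 (SE), with an adjusted p of 0.107 in limma. Cxcl12, which binds Cxcr4 and is expressed without stimulation, had signals of 3027, 3504 and 3471 against 3478, 2804 and 2302. KO replicate 1 was as high as wild type and the other KO arrays were lower, the log2 fold change was -0.24 with an adjusted p of 0.309, and without KO replicate 1 it passed with -0.39 (adjusted p = 0.0468). The next brightest probe set of Cxcl12 had 0.02 (limma, adjusted p = 0.940 over all probe sets). The mean of its probe sets had -0.11 (adjusted p = 0.685). Cxcl1, a neutrophil attractant, had a log2 fold change of 0.32 on its brightest probe set (206 to 318 in wild-type, 307 to 394 in KO cells) and -0.58 and -0.52 on its dimmer ones. Its probe sets disagreed in sign, and none passed (adjusted p = 0.320 to 0.473 over all probe sets). Ccl7 had wild-type signals of 38.9, 51.9 and 75.7 and KO signals of 89.9, 10.6 and 111, which overlap widely (adjusted p = 0.980). Cxcl5 and Ccl20 were under the filter on low signals, with 3.61 to 57.6 and 6.16 to 59.6 over the 6 arrays.

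Among the cytokine genes, Csf1, which encodes the growth factor of macrophages and osteoclast precursors, had all 3 KO arrays above the wild-type arrays. Its signals were 4170, 4533 and 4236 on wild-type and 4928, 5258 and 4730 on KO arrays, a log2 fold change of 0.20 ± 0.08 (SE), with an adjusted p of 0.125 in limma. The other 3 probe sets had 0.36, 0.16 and 0.06, the same sign, and none passed. Il6 had wild-type signals of 86.5, 81.8 and 73.2 and KO signals of 82.2, 5.83 and 43.5, so that KO replicate 1 lay within the wild-type range and KO replicate 2 far below it (log2 fold change -1.14, adjusted p = 0.320). Il1b had 58.1 to 82.9 in wild-type and 14.5 to 103 in KO cells, with KO replicate 1 lowest and KO replicates 2 and 3 above every wild-type array (log2 fold change -0.25, adjusted p = 0.841, and 0.49 without KO replicate 1). Il33, an alarmin of the IL-1 family, was under the filter, with 29.9 to 39.8 in wild-type and 38.5 to 71.7 in KO cells.

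Neither of the prostaglandin synthesis enzymes tested passed, and 0 had an unadjusted p under 0.05 in limma or by the methods' t-test. Ptgs2, which encodes the inducible cyclooxygenase, spread widely in both groups, with signals of 4155, 2836 and 2321 on wild-type arrays and 1319, 3020 and 3049 on KO arrays. Wild-type replicate 1 was highest and KO replicate 1 lowest, and the other 2 KO arrays lay above the other 2 wild-type arrays (log2 fold change -0.39, adjusted p = 0.467, and 0.010 without KO replicate 1). Its dimmer probe set had the opposite sign, 0.13. Ptges, the prostaglandin E synthase, had 105 to 204 in wild-type and 147 to 163 in KO cells (adjusted p = 0.762). Nos2, the inducible nitric oxide synthase, was under the filter, with signals of 3.86 to 12.7.

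Of the remaining targets, Irf1, a transcription factor shared with the interferon response, came closest to the threshold. Its signals were 742, 792 and 778 on wild-type arrays and 612, 594 and 647 on KO arrays. The groups were clearly apart, yet the log2 fold change of -0.32 (standard error 0.10) had an adjusted p of 0.0762 from limma, and over 17 alternative settings it was 0.0600 to 0.253. Ier3 (2213 to 2417 in wild-type, 2009 to 2259 in KO cells), the apoptosis inhibitor Birc3 (261 to 336, 234 to 444) and Tnfaip2 (721 to 788, 623 to 961) had overlapping groups, with log2 fold changes of -0.12, 0.07 and 0.03.

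**Figure D3:**
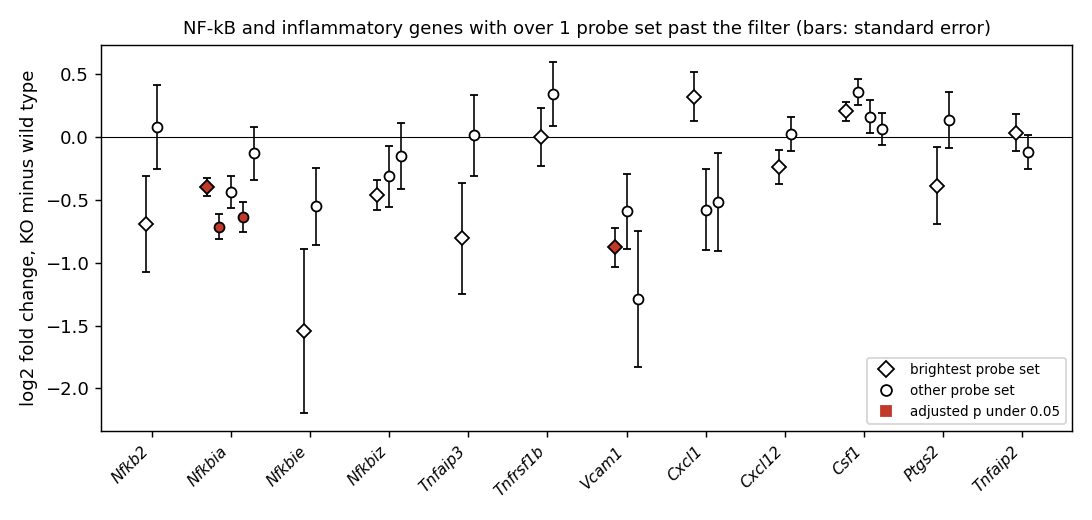
Log2 fold changes, KO minus wild type, of the 12 genes with over 1 probe set past the filter, with the standard error as bars. Diamonds are the brightest probe sets, circles the others, and red marks an adjusted p under the threshold over all probe sets past the filter. All 5 probe sets of Nfkbia and all 3 of Vcam1 lie below 0 and all 4 of Csf1 above it, while those of Nfkb2, Tnfaip3, Tnfrsf1b, Cxcl1, Cxcl12, Ptgs2 and Tnfaip2 differ in sign.

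The rest of the pathway was read from 52 further genes, of which 42 were tested. These encode receptors, adaptors, kinases and regulators upstream of NF-κB. Here 2 were lower and none was higher (limma, 6 higher and 9 lower at an unadjusted p under 0.05, 0 higher and 1 lower by the methods' t-test after adjustment), a share of 4.76%, near the background of 4.68%. Their median log2 fold change was -0.02. Cd40, which is part of it, reached the filter through the wild-type arrays, with a KO mean under it. Bcl10, an adaptor that links immune receptors to the IκB kinase, had signals of 1979, 1990 and 2000 on wild-type arrays and 1209, 1311 and 1368 on KO arrays. The wild-type arrays were nearly equal and every KO array lay well below them. The log2 fold change was -0.62 ± 0.08 (SE), with an adjusted p of 0.00224 in limma. Tlr4, the lipopolysaccharide receptor that works with Cd14, had 660, 640 and 538 against 418, 485 and 386, a log2 fold change of -0.51 ± 0.14 (SE), with an adjusted p of 0.0443. The groups did not overlap, but the call for Tlr4 was lost without each of wild-type replicates 1, 2 and 3 and KO replicates 1 and 3, with adjusted p from 0.0643 to 0.172. Ly96, which holds the lipopolysaccharide in this receptor, and Lbp, the serum protein that delivers it, were chosen after their values were seen. Ly96 had 506, 478 and 453 against 367, 258 and 417 (log2 fold change -0.48, adjusted p = 0.122). Lbp had the opposite sign, with 82.2, 99.97 and 152 against 356, 207 and 179 (log2 fold change 1.08, adjusted p = 0.0590). Both passed without KO replicate 3 (adjusted p = 0.0493 and 0.0414).

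Another list held 50 other known NF-κB targets, of which 29 were tested, 3 were lower and none was higher (limma, 2 higher and 8 lower at an unadjusted p under 0.05, 0 higher and 1 lower by the methods' t-test after adjustment). That is 10.3% lower, against 4.68% of all tested genes, and the median log2 fold change was -0.17. Cxcl10 and Zc3h12a reached the filter through the wild-type arrays and Ccl8 through the KO arrays. Their part in the median is thus no support for a change. Saa3, an acute-phase protein gene, fell from 920, 1568 and 1802 on wild-type arrays to 261, 320 and 286 on KO arrays. Even the lowest wild-type array was far above the highest KO array, and the log2 fold change was -2.22 ± 0.22 (SE), with an adjusted p of 0.000498 in limma. Ccnd1, which encodes cyclin D1, had 9394, 10318 and 10597 against 4045, 4288 and 4000 (log2 fold change -1.29, adjusted p = 6.73e-05), and F3, which encodes tissue factor, had 1910, 1650 and 1462 against 793, 1048 and 1025 (-0.81, adjusted p = 0.00581). The groups did not overlap for any of the 3 genes, and Ccnd1 and F3 are also controlled by growth factors. Of the 21 listed targets that were not tested, 18 were under the filter.

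**Figure D4:**
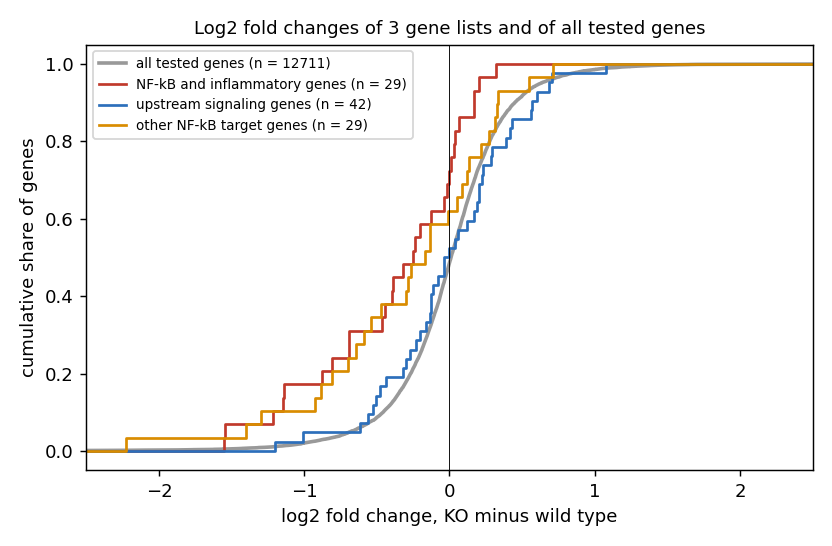
Cumulative share of genes by log2 fold change, KO minus wild type, for the 29 NF-κB and inflammatory genes (red), 42 upstream signaling genes (blue), 29 other NF-κB target genes (orange) and all 12711 tested genes (gray). Over most of the negative side the red and orange curves lie above the gray curve, with medians of -0.25 and -0.17 against 0.01, and the blue curve stays near the gray one with a median of -0.02.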

How the data were processed

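Total RNA of primary chondrocytes was labeled with biotin in 1 cycle and hybridized to Affymetrix arrays. The deposited values are linear signal intensities of each probe set on each array, without detection calls. The authors' processing notes name MAS5, with no version, and their methods name gcRMA. Trimmed of 2% of values at each end, the mean is 500.003 on each array and the quantiles are unequal, which is the form of MAS5 signals. The number of arrays limits the precision.

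Of 45101 probe sets, 34945 had 1 gene symbol, 932 several and 9224 none or were controls; 34741 were matched to a RefSeq gene table, which changed 0 symbols. Values were taken as log2(signal + 7.96), the pseudocount being the 10th percentile of all values, which understates changes of dim genes. The brightest probe set by mean signal stood for each of 18193 genes, and a gene was tested where its mean log2 value reached the 40th percentile (5.80), which held for 12711. KO was compared with wild type in limma 3.58.1 (R 4.3.3; lmFit, eBayes with trend), with Benjamini-Hochberg adjustment and a threshold of 0.05. The procedure was tested on simulated data. All listed genes were named, and from other lists up to 4 genes past the threshold, or 2 with the lowest p. Cd68, C1qb, Mrc1, Cd40, Cxcl10, Zc3h12a, Ccl8, Ly96 and Lbp were named outside this rule. The genes, lists and tests were chosen with earlier results of these data known. Alternatives were no filter or the 60th percentile, median centring, quantile normalization, averaging all probe sets of a gene, other probe sets, pseudocounts at the 25th or 1st percentile, leaving out probe sets ending in _x_at or _s_at, a replicate block, limma without trend, the methods' two-sided Student test, and each array left out in turn.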

Additional observations from a re-analysis of the deposited data

How the results depend on the processing

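Over 17 alternative settings, none of the 5 genes that were lower changed direction, but for most settings this was fixed beforehand. Every KO array lay below every wild-type array for these genes, so leaving out 1 array cannot change the sign. Changes of filter or test leave the fold change as it is. The number of listed genes that were lower, 5 with all arrays, was 3 without the filter, 2 with median centring, 3 when all probe sets of a gene were averaged, 3 with a replicate block, 1 without limma's trend and 1 with the methods' t-test, and 2 to 5 without 1 array. It was 2 without wild-type replicate 1 or 2 and 3 without wild-type replicate 3 or KO replicate 2. The share of all genes that were lower moved too, from 4.68% to 2.85% without the filter and 1.82% with median centring. It was 3.28% with averaged probe sets, 2.78% with a replicate block, 1.13% without the trend and 0.346% with the t-test. Without wild-type replicates 1, 2 and 3 it was 1.92%, 1.59% and 2%, and without KO replicates 1, 2 and 3 it was 4.81%, 3.43% and 6.4%. The filter changes how many genes are tested and each omission how many arrays; for the other settings the cause was not tested. No setting made a listed gene higher past the threshold. Without KO replicate 1 the number of listed genes that were lower was 5, of which 4 were the same genes, with Cxcl12 in place of Nfkbiz. The median log2 fold change of the listed genes was -0.16 with the filter at the 60th percentile, -0.34 with median centring and -0.35 without probe sets ending in _x_at or _s_at. Of the 29 genes, 11 changed sign in some setting, none of them among the 5, for which most settings could not do so.

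The upstream signaling genes that were lower, 2 with all arrays, were 1 without the filter, with median centring, with the mean of probe sets, with a replicate block, without the trend and with the methods' t-test, and 1 to 3 without 1 array (1 without any wild-type array or KO replicate 1, 3 without KO replicate 2 or 3), while 0 to 2 were higher without 1 array (2 without KO replicate 3). Their median was -0.11 with median centring and -0.040 to 0.082 without 1 array. Of the other targets, 1 was lower with the methods' t-test, 1 was higher with a replicate block and 0 to 1 were higher without 1 array (1 without KO replicate 1 or 3). Their median was -0.072 with the filter at the 60th percentile, -0.26 with median centring and -0.31 with the mean of probe sets.

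Over all genes, 591 were higher and 595 lower, and with median centring 106 and 231, while the median of all genes went from 0.01 to -0.084. Same-numbered arrays of the groups did not deviate together (correlations of 0.036, 0.013 and -0.074). No label says whether they share a litter or a day, and with 3 arrays a group these correlations cannot exclude it. With the replicate block 344 genes were higher and 354 lower. Without limma's trend these counts were 121 and 144, and with the methods' t-test 41 and 44. The differences of the dim genes Rel, Nfkbie and Il6, which reached the filter through the wild-type arrays, did not pass the test.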
